A study of Mus musculus with 6 samples.

Results

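The genes described are 9 members of the S100 family of small calcium-binding proteins, S100a1, S100a4, S100a6, S100a8, S100a9, S100a10, S100a11, S100a13 and S100a16, out of 21813 gene symbols with values. They were selected by symbol, with the transcript of highest mean RPKM kept where a symbol had several. Each member had 1 RefSeq transcript in the table, so this step chose nothing among them. The members were picked with earlier results of these data in view, so their levels and counts are given as descriptions. Islets were isolated by collagenase digestion from 3 Ucn3 null mice and from 3 wild-type littermates, all males aged 3 months, and each animal gave 1 library. Ucn3 encodes urocortin 3, a peptide of mature beta cells, and wild type is the only other group. The labels do not say how the null allele was made. The labels give the cell type as mixed and also mention a FACS step before RNA extraction, so the share of each cell type in a library is unknown.

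S100 proteins are dimers built from a pair of EF-hand calcium-binding loops per subunit. They have no enzyme activity of their own and act by binding other proteins when calcium rises. S100a10 is the exception that no longer binds calcium and is held in its active shape. Several of them bind annexins, which link membranes to the cytoskeleton, and others bind myosin, calcium pumps or heat shock co-chaperones. In the pancreas they are best known from duct, stroma and immune cells, although endocrine cells also transcribe some of them.

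The targeted gene separated the groups as labelled. Ucn3 had 1.61, 1.63 and 1.80 RPKM in Ucn3 null islets, against 136, 157 and 155 RPKM in wild-type islets. RPKM is the number of reads on a transcript divided by its length and by the depth of the library, so levels of different genes can be compared. Single-read steps among low values gave a depth of 46400000 to 51810000 reads in the null libraries and of 42520000 to 48370000 reads in the wild-type libraries. Summed RPKM of 10 beta cell markers was 230500 to 255100 in null and 247200 to 285800 in wild-type libraries, so beta cell transcripts were abundant in every library. A mean of 1 RPKM or more was reached by 12652 genes, which were tested with limma on log2(RPKM + 1). With 3 animals in each group, an exact two-sided permutation test of a single gene cannot go below p = 0.1.

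The members spanned a wide range of expression in islets. S100a11 was the most abundant, with a mean of 52.9 RPKM over the 6 libraries, followed by S100a10 at 36.2 and S100a1 at 28.2 RPKM. A middle tier held S100a6 at 7.25 and S100a13 at 6.87 RPKM, and a lower one S100a4 at 3.75 and S100a16 at 3.34 RPKM. S100a9 and S100a8 averaged 0.103 and 0.0626 RPKM and were not tested. Some neighbours in this order exchanged places between libraries. S100a1 exceeded S100a10 in replicate 3 of either group, and S100a4 exceeded S100a16 in 3 of the 6 libraries. The 7 tested members were at 2.35 RPKM or more in every library, so none was tested because of its level in 1 group alone.

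All 7 tested members had lower mean values in Ucn3 null islets, but none passed the adjusted threshold of 0.05. Over all tested genes 0.0158% passed that threshold as lower, namely 2 genes, among them the targeted gene Ucn3, and none passed as higher. That number was 5 when Ucn3 null replicate 1 was left out and 1 when replicate 2 of the same group was. Every library of the null group lay below every wild-type library for 3 members, S100a6, S100a16 and S100a13, where 13.2% of all tested genes showed this and 1.9% showed the opposite. An unadjusted limma p under 0.05 was found for 4 members, all lower, where 7.9% of all tested genes were lower and 1.46% higher at that level. The median difference of the 7 members was -0.29 in log2(RPKM + 1), beside a median of -0.03 for all tested genes, of which 61.7% had a negative difference. The summed level of the 9 members was 130, 118 and 121 RPKM in null libraries, against 155, 166 and 141 RPKM in wild-type libraries, and 3 members, S100a11, S100a10 and S100a1, made up most of it. In RNA of many cells together, fewer cells of a type that carries these transcripts and less transcript per cell cannot be told apart.

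**Figure D1:**
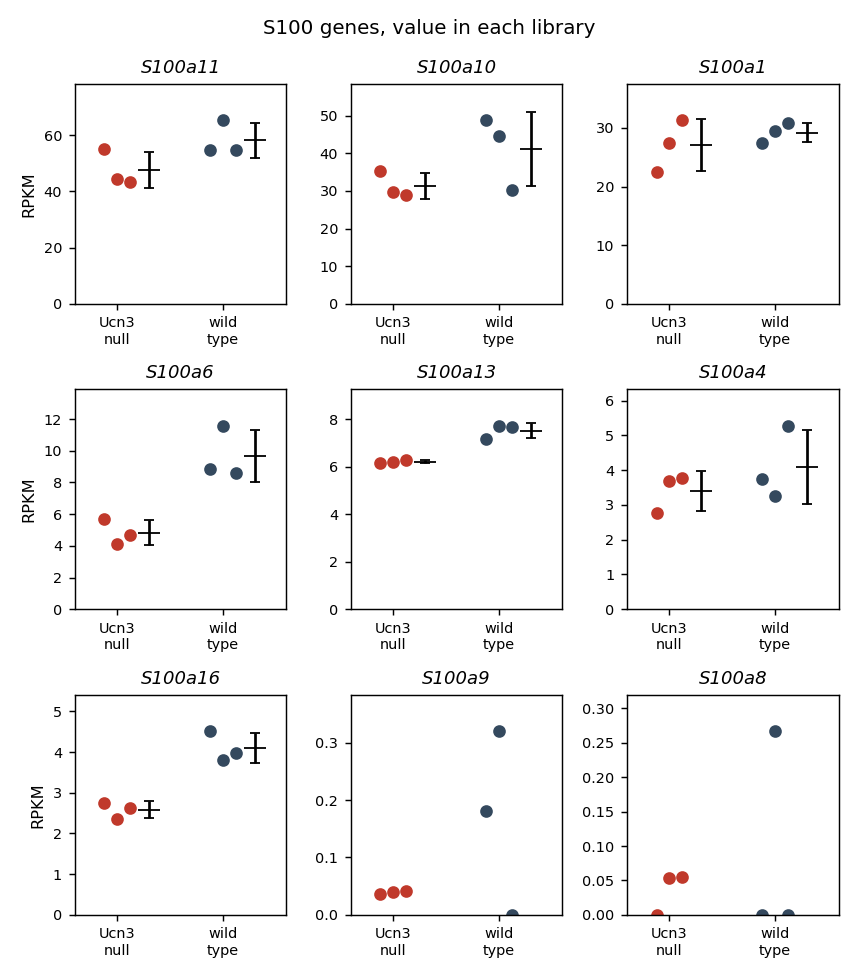
RPKM of each of the 9 S100 genes (vertical axes, starting at 0, a separate scale for each gene) in the 3 Ucn3 null libraries (left) and the 3 wild-type libraries (right); points are libraries and the dashes with bars are group means with SD, left out for S100a9 and S100a8, which are listed at 0 in some libraries. The groups are apart for S100a6, S100a13 and S100a16 and overlap for the other genes.

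S100a6, also called calcyclin, binds the ubiquitin ligase adaptor CacyBP and several annexins. Its value was 5.69, 4.11 and 4.70 RPKM in Ucn3 null replicates 1 to 3, against 8.83, 11.6 and 8.62 RPKM in wild type replicates 1 to 3. The lowest wild-type library was thus well above the highest null library. Mean levels were 4.84 ± 0.80 RPKM in null and 9.67 ± 1.65 RPKM in wild-type islets (SD, n = 3 each), a null to wild type ratio of 0.500. The log2 difference was -0.87 (SE 0.14, limma adjusted p = 0.297), the smallest p of the 7 tested members and the tenth in rank over all tested genes. With 1 library left out the difference stayed between -0.97 and -0.75. About 144 to 215 reads per library stood behind the null values and 274 to 407 reads behind the wild-type values.

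S100a16 is a widely expressed member that neighbours S100a14 in the genome. It had 2.76, 2.35 and 2.63 RPKM in null islets, against 4.51, 3.81 and 3.98 RPKM in wild-type islets. The groups did not overlap, and the gap between them was wider than the spread within either. Means were 2.58 ± 0.21 RPKM in null and 4.10 ± 0.36 RPKM in wild-type islets (SD, n = 3 each), with a log2 difference of -0.51 (SE 0.08, limma adjusted p = 0.336). The log2(RPKM + 1) scale understates the change of a gene at this level: with a pseudocount of 0.1 in place of 1, the difference was -0.65 (SE 0.10, limma adjusted p = 0.321).

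S100a13 takes part in the release of FGF1 and interleukin 1 alpha, which lack a signal peptide. It was the least variable member, at 6.16, 6.22 and 6.27 RPKM in null islets, against 7.18, 7.72 and 7.67 RPKM in wild-type islets. The gap between the groups was small in size but wider than the spread within either. The log2 difference was -0.24 (SE 0.06, 95% interval -0.38 to -0.10, limma adjusted p = 0.486). Since S100a6 and S100a13 have similar levels, their order differed between the groups. The ratio of S100a6 to S100a13 within a library, which does not depend on depth, was 0.923, 0.662 and 0.750 in null libraries, against 1.23, 1.499 and 1.12 in wild-type libraries. S100a6 was the lower of the pair in each null library and the higher in each wild-type library.

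The members lie on mouse chromosome 3 in 2 groups. From S100a1 to S100a9 there are 12 protein-coding genes in a row in RefSeq, all of them S100 genes, and 7 of these are members. S100a11 and S100a10 are neighbours elsewhere on the chromosome. S100a1 and S100a13 are read away from each other, and their promoter windows share 204 bases. Windows from 250 bases before to 50 bases after a transcript start (RefSeq, build GRCm38.p6, which is not the build of the table) were held for 8 of the 9 members. They are printed for the 3 members whose groups did not overlap, since these are the genes whose transcript levels the comparison separates, and for the most abundant one, S100a11. Each is written 5′ to 3′ on the strand of its gene, and capitals mark matches to the AP-1 motif TGANTCA or the E-box CACGTG on either strand. S100a16 has 2 annotated starts.
S100a6, chr3:90612644-90612943, plus strand: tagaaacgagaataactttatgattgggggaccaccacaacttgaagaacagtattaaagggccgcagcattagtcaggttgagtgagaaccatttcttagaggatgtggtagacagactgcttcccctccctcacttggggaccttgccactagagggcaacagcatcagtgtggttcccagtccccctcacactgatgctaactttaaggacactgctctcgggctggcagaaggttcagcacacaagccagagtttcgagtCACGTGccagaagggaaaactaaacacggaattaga
S100a16, first start, chr3:90537004-90537303, plus strand: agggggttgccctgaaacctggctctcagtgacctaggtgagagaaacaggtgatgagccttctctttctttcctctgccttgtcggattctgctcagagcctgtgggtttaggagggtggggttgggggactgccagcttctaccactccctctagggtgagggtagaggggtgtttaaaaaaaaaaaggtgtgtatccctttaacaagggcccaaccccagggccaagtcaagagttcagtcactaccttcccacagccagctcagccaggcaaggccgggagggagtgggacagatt
S100a16, second start, chr3:90540896-90541195, plus strand: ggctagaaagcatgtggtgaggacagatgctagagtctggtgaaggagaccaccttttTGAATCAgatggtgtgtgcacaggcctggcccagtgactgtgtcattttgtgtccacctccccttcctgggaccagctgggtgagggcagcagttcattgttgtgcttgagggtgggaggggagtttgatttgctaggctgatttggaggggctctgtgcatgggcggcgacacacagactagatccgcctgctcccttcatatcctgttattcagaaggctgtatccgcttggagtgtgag
S100a13, chr3:90514185-90514484, plus strand: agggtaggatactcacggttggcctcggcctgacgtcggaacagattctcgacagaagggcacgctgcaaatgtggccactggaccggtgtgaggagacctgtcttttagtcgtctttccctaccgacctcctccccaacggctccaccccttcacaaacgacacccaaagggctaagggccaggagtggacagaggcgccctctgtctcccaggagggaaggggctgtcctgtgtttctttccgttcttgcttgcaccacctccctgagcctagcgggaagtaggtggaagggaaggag
S100a11, chr3:93520246-93520545, plus strand: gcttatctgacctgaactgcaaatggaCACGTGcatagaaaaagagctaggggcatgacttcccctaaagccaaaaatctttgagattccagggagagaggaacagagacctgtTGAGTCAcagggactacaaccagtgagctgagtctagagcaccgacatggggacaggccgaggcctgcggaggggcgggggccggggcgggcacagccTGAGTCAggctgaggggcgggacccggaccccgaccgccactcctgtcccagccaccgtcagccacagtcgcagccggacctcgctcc
The E-box letters were found once in the S100a6 window and once in that of S100a11, and in 7.15% of all 32851 promoter windows. AP-1 letters were found at 2 places in the S100a11 window and once at the second S100a16 start, against 7.81% of all windows. The S100a13 window and the first S100a16 window held neither. TATAAA, the TATA box letters, was in none of these 5 windows but was in those of S100a4, S100a8 and S100a9, against 13.6% of all windows. None of these 3 motifs was common to the windows of the 3 members that separated the groups, but each is found in few of all windows. Shared regulation of these members was not tested. A match is a run of letters and not a shown binding site.

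S100a10 and S100a11 are the abundant annexin-binding members. S100a10, also called p11, joins with annexin A2 in a complex at the plasma membrane. It had 35.2, 29.7 and 29.0 RPKM in null islets, against 48.7, 44.6 and 30.1 RPKM in wild-type islets. Wild type replicate 3 stood with the null libraries, and the groups overlapped. The log2 difference was -0.36 (SE 0.18, 95% interval -0.77 to 0.05, limma adjusted p = 0.568). It was -0.56 without wild type replicate 3 and -0.23 without wild type replicate 1 (limma adjusted p = 0.370 and 0.594), so single wild-type libraries move it by over 1.5 times.

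S100a11 is a partner of annexin A1. It had 55.1, 44.3 and 43.4 RPKM in null islets, against 54.6, 65.3 and 54.6 RPKM in wild-type islets. Ucn3 null replicate 1 stood level with the 2 lower wild-type libraries, and the other null libraries were below all of wild type. The log2 difference was -0.29 (SE 0.12, limma adjusted p = 0.527) and ran from -0.40 to -0.20 with 1 library left out. Relative to S100a11 in the same library, S100a6 was at 0.103, 0.0929 and 0.108 in null, against 0.162, 0.177 and 0.158 in wild type. This ratio, which scaling of a library cannot change, did not overlap between the groups. S100a6 by itself did not overlap either, and how often ratios of other genes are apart was not counted. S100a10 relative to S100a11 was 0.640, 0.671 and 0.669 in null and 0.893, 0.683 and 0.552 in wild type, which overlap.

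S100a1 and S100a4 bind proteins of contraction and of the cytoskeleton. S100a1 regulates calcium release channels and calcium pumps in heart muscle. It had 22.5, 27.5 and 31.3 RPKM in null islets, against 27.4, 29.5 and 30.8 RPKM in wild-type islets, so both the lowest and the highest library were null. Its log2 difference was -0.11 (SE 0.12, 95% interval -0.39 to 0.16, limma adjusted p = 0.810), and 0.01 without Ucn3 null replicate 1. S100a13, which shares part of its promoter window with S100a1, separated the groups while S100a1 did not. The ratio of S100a13 to S100a1 was 0.273, 0.226 and 0.200 in null and 0.262, 0.262 and 0.249 in wild-type libraries, and these overlap, so a difference between these neighbours was not shown.

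S100a4 binds non-muscle myosin and marks fibroblasts and some immune cells. It had 2.75, 3.69 and 3.77 RPKM in null islets, against 3.73, 3.26 and 5.27 RPKM in wild-type islets. Wild type replicate 3 was the high library and Ucn3 null replicate 1 the low one, and the groups overlapped. The log2 difference was -0.20 (SE 0.16, 95% interval -0.57 to 0.17, limma adjusted p = 0.736), and -0.04 without wild type replicate 3. S100a4 shares exons with Gm42674 in GENCODE M21, and the labels do not say how such reads were assigned, so its level is uncertain.

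S100a8 and S100a9 form calprotectin, an abundant protein of neutrophils. S100a8 was listed at 0, 0.0535 and 0.0552 RPKM in null libraries and at 0, 0.267 and 0 RPKM in wild-type libraries. S100a9 was at 0.0371, 0.0401 and 0.0414 RPKM in null libraries and at 0.181, 0.320 and 0 RPKM in wild-type libraries. These null values of S100a9 are worth about 1 read each, and the highest values, in wild type replicate 2, about 6.2 reads of S100a8 and 8 reads of S100a9. Whether the groups differ was not detectable at this depth. Of the other neutrophil markers, 13 of 15 were in the table and 1 averaged 1 RPKM or more, Lcn2, which encodes an iron-siderophore carrier also made by epithelia. Lcn2 had 0.476, 0.343 and 0.0759 RPKM in null islets, against 8.87, 1.25 and 0.558 RPKM in wild-type islets, a log2 difference of -1.34 (SE 0.61, limma adjusted p = 0.543). Null libraries averaged 0.298 RPKM, so Lcn2 was tested only because of its level in wild-type libraries, which was highest in replicate 1. Its log2 difference was -0.54 without wild type replicate 1 and -2.49 with a pseudocount of 0.1. Mpo, which encodes a peroxidase of neutrophil granules, stayed between 0.0076 and 0.0254 RPKM in null and between 0 and 0.0649 RPKM in wild-type libraries. The library with most S100a8 and S100a9 was wild type replicate 2, while the one with most Lcn2 was wild type replicate 1.

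**Figure D2:**
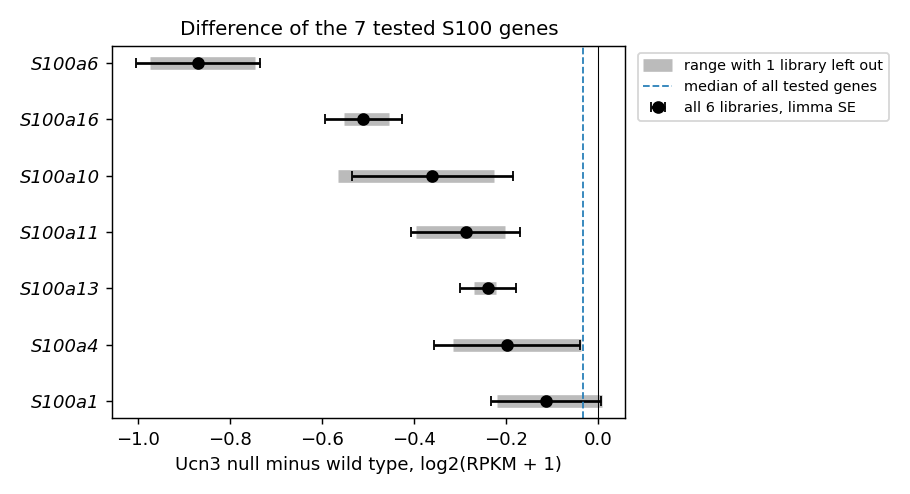
Differences of the 7 tested S100 genes, given as Ucn3 null minus wild type in log2(RPKM + 1) (horizontal axis); points with bars are the limma estimate and SE from all 6 libraries, grey bands the range with 1 library left out, and the dashed line the median of all tested genes at -0.03. S100a6 lies farthest from 0 at -0.87, and the band of S100a13 is the narrowest of the 7, while that of S100a1 reaches past 0.

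Other genes of the family were mostly low. Of 16 listed genes outside the members (other S100 genes, S100pbp and fused S100-type genes of skin), 14 were in the table and 2 averaged 1 RPKM or more. S100z had 2.71, 1.74 and 1.51 RPKM in null islets, against 3.69, 2.23 and 2.14 RPKM in wild-type islets, which overlap (log2 difference -0.30, SE 0.20, limma adjusted p = 0.675). Leaving out wild type replicate 1 gave -0.11 and leaving out Ucn3 null replicate 1 gave -0.47. S100pbp, which encodes a nuclear protein named for binding S100P, overlapped as well, with a log2 difference of 0.13 (SE 0.15, limma adjusted p = 0.823), and -0.04 without wild type replicate 2. S100a14, between S100a13 and S100a16 in the cluster, was too low to test. It had 0.186, 0.0894 and 0.0462 RPKM in null islets, against 0.403, 0.357 and 0.266 RPKM in wild-type islets, so its groups did not overlap. These values rest on about 8.8, 3.9 and 2.0 reads in null and 15.7, 15.7 and 11.8 reads in wild-type libraries. The share of genes at such levels without overlap was not counted. S100b, the glial member, was at 0.162 to 0.237 RPKM in null and 0.136 to 0.310 RPKM in wild-type libraries. S100a2, S100a3, S100a5, S100a7a and S100g stayed under 0.7 RPKM in every library, and Tchh, Tchhl1, Flg2, Hrnr and Rptn, whose products belong to hair and skin, under 0.15 RPKM.

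Non-S100 genes near the cluster were chosen after the values of the members were seen. Chtop, the coding gene directly before S100a1, had no value under that symbol. Npr1 had a log2 difference of 0.14 (limma adjusted p = 0.700), Ilf2 of -0.15 (0.621) and Snapin of -0.09 (0.699). Snapin was at 8.16, 8.30 and 8.52 RPKM in null and 8.91, 8.63 and 9.14 RPKM in wild-type libraries, which do not overlap but differ by a small step. Pglyrp4, beyond S100a9, was under 0.02 RPKM in every library.

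Among binding partners and receptors of S100 proteins, 27 of 30 listed genes were tested and none passed the adjusted threshold. Of these, 21 had a negative difference, with a median of -0.08, and 8 did not overlap, all lower in null islets, where 61.7% of all tested genes were negative and 13.2% lower without overlap. Annexin A2, the partner of S100a10, is encoded by Anxa2, at 11.4, 6.55 and 6.14 RPKM in null islets, against 15.9, 14.2 and 11.7 RPKM in wild-type islets. The highest null library was just below the lowest wild-type library (log2 difference -0.76, SE 0.21, limma adjusted p = 0.486). Per length, S100a10 was more abundant than Anxa2 in every library. Anxa5, whose product binds phosphatidylserine, had 74.0, 68.6 and 67.6 RPKM in null islets, against 83.6, 94.2 and 84.9 RPKM in wild-type islets (log2 difference -0.32, SE 0.08, limma adjusted p = 0.486). Tgm2, which encodes a protein cross-linking enzyme, had 3.52, 2.15 and 1.75 RPKM in null islets, against 6.88, 6.73 and 3.56 RPKM in wild-type islets. Its groups came just short of overlapping (log2 difference -0.94, SE 0.25, limma adjusted p = 0.486).

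Anxa1, Ahnak and Cacybp overlapped between the groups. Anxa1, the partner of S100a11, had 3.30, 1.57 and 1.94 RPKM in null islets, against 6.11, 3.67 and 2.51 RPKM in wild-type islets (log2 difference -0.61, SE 0.28, limma adjusted p = 0.540, and -0.34 without wild type replicate 1). Ahnak encodes a giant scaffold held by S100a10 and annexin A2. Its transcript of highest mean, used here, is a short form, with about 1991 reads at 46.3 RPKM in Ucn3 null replicate 1. The level of the long form is not given. The short form had 46.3, 21.8 and 23.2 RPKM in null islets, against 66.2, 36.3 and 29.2 RPKM in wild-type islets (log2 difference -0.51, SE 0.36, limma adjusted p = 0.699). The difference was -0.18 without wild type replicate 1 and -0.85 without Ucn3 null replicate 1. For Anxa2, Anxa1 and Ahnak alike, replicate 1 was the highest library of its group. Cacybp, the partner of S100a6, was at 15.3, 12.1 and 13.3 RPKM in null and 15.6, 15.4 and 14.2 RPKM in wild-type islets (log2 difference -0.15, SE 0.09, limma adjusted p = 0.657). Ager, the receptor RAGE for secreted S100 proteins, averaged under 1 RPKM, at 0.502 to 0.753 RPKM in null and 0.527 to 0.761 RPKM in wild-type libraries.

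**Figure D3:**
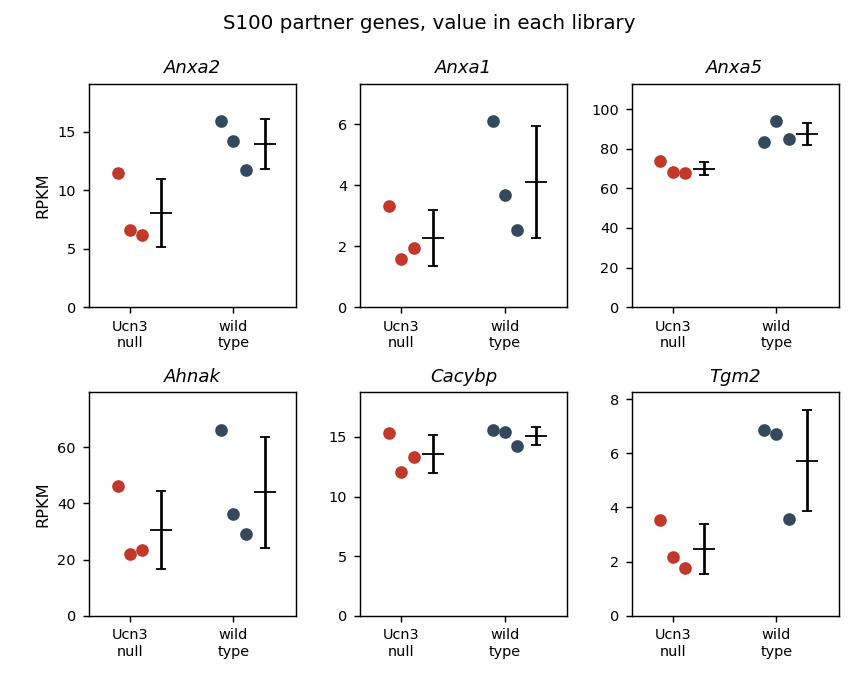
RPKM of 6 S100 partner genes (vertical axes, starting at 0, a separate scale for each gene) in the 3 Ucn3 null libraries (left) and the 3 wild-type libraries (right); points are libraries, dashes with bars are group means with SD. Anxa2, Anxa5 and Tgm2 do not overlap between groups, while Anxa1, Ahnak and Cacybp do. The Ahnak values are those of a short transcript of this gene.

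Other EF-hand proteins gave a comparison with genes of the same calcium-binding fold. Of 35 listed genes 28 were tested, none passed, 22 had a negative difference, and the median was -0.10. The groups did not overlap for 9 of them, all lower in null islets, beside the 13.2% of all tested genes (61.7% were negative). Cetn3 and Cetn2, which encode centrins of the centriole, had log2 differences of -0.29 (SE 0.09) and -0.28 (SE 0.09), both with a limma adjusted p of 0.486. Scgn, which encodes secretagogin, a calcium sensor of endocrine cells, was at 103, 96.6 and 102 RPKM in null islets, against 110, 124 and 125 RPKM in wild-type islets (log2 difference -0.24, SE 0.08, limma adjusted p = 0.486). The S100a6 difference was larger than those of these 3 genes, but the difference between genes was not tested.

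The genes whose pattern over the 6 libraries was most like that of a member were found by Pearson's r of log2(RPKM + 1), given without a p since the libraries share the genotype contrast. For S100a6 they were Gna15, a G protein subunit gene (r = 0.999), Rplp1, a ribosomal protein gene (0.999), and Brp44 (0.995), and 97 of the tested genes exceeded 0.95. Rplp1 was at 324, 293 and 311 RPKM in null islets, against 377, 413 and 375 RPKM in wild-type islets, a log2 difference of -0.33 (SE 0.10, limma adjusted p = 0.486). Gna15 and Brp44 had log2 differences of -0.20 and -0.14, so the likeness is in the order of the libraries and not in the size of the change. For S100a11 they were Prss8, a membrane-bound serine protease gene of epithelia (r = 0.998), Mir3112 (0.988) and Snora69 (0.985), and 15 genes exceeded 0.95. Mir3112 rests on about 3.0 to 10.1 reads per library and Snora69 on about 6.4 to 30.1, so their likeness is uncertain. Mir3112 was also tested only because of its level in wild-type libraries. Prss8 was at 2.57, 1.92 and 1.82 RPKM in null islets, against 2.58, 3.20 and 2.50 RPKM in wild-type islets.

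Markers of several cell types moved with the groups to differing degrees, and their part in the S100 values was not tested. Of 18 ductal markers 16 were tested, 14 with a negative difference, and their median was -0.32. The mean log2(RPKM + 1) of the list was 4.20, 3.87 and 3.76 in null libraries, against 4.35, 4.33 and 3.99 in wild-type libraries, and its summed level was 360 to 442 RPKM in null and 401 to 513 RPKM in wild-type libraries. Both ranges overlap. By gene, 7 of the 16 were lower in null islets without overlap and 8 were lower at an unadjusted limma p under 0.05, where 13.2% and 7.9% of all tested genes were. In the other direction, 1 was higher without overlap and 2 at that p, where 1.9% and 1.46% of all tested genes were. Krt19, a keratin of duct cells, had 12.97, 5.31 and 3.96 RPKM in null islets, against 18.5, 22.8 and 13.3 RPKM in wild-type islets (log2 difference -1.31, SE 0.37, limma adjusted p = 0.486). In null islets Krt19 and S100a6 were both highest in replicate 1, and in wild-type islets both were highest in replicate 2. Their order differed in null replicates 2 and 3, where Krt19 fell and S100a6 rose, from 4.11 to 4.70 RPKM. Cd24a, a surface glycoprotein of epithelia, and Epcam, an epithelial adhesion molecule, had log2 differences of -0.67 (SE 0.12, limma adjusted p = 0.367) and -0.33 (SE 0.08, limma adjusted p = 0.486). Prom1 was 1 of the 2 tested ductal markers with a positive difference, at 0.67 (SE 0.16, limma adjusted p = 0.486), and its groups did not overlap. Epcam was highest in the same replicates as S100a6 in both groups. Cd24a was so in wild type only, with its highest null value, 17.8 RPKM, in replicate 3, and Prom1 in neither group. Genes outside the ductal list, among them Cd14, Anxa5 and Rplp1, were also highest in these replicates. The match is thus not particular to ductal markers.

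Sign counts of the lists below stand beside 61.7% negative over all tested genes. Macrophage and dendritic markers had a median of -0.20 over 16 tested genes, 13 of them negative, and their summed level was 155 to 219 RPKM in null and 166 to 287 RPKM in wild-type libraries. Within that list Cd14, Tyrobp and Fcer1g had log2 differences of -0.65, -0.19 and -0.24 (limma adjusted p = 0.486, 0.527 and 0.592), and Fcer1g was at -0.39 without wild type replicate 1 and at -0.14 without wild type replicate 3. Fibroblast and stellate markers had a median of 0.02 over 8 tested genes and a summed level of 25.9 to 29.1 RPKM in null and 23.7 to 44.1 RPKM in wild-type libraries. Of the 8, 5 were positive and 3 negative. Dcn, Vim and Acta2 differed by -0.60, -0.32 and 0.12 (limma adjusted p = 0.578, 0.707 and 0.907). Without wild type replicate 1 these were -0.34, -0.02 and 0.30. Dcn and Vim were at -0.99 and -0.52 without wild type replicate 2, and Acta2 at -0.10 without Ucn3 null replicate 2. The mesothelial list held 2 tested genes, Gpm6a and Msln, at -0.39 each (limma adjusted p = 0.486 and 0.698), with a summed level of 7.54 to 17.8 RPKM in null and 15.5 to 17.6 RPKM in wild-type libraries. Gpm6a had 0.616, 0.805 and 0.824 RPKM in null islets, against 1.30, 1.22 and 1.33 RPKM in wild-type islets. It was tested only because of its level in wild-type libraries. Msln overlapped between the groups, and was at -0.05 without Ucn3 null replicate 3 and at -0.67 without replicate 2 of that group. Of the Schwann cell markers reported here 2 were tested, Erbb3 and Mbp, at -0.18 and 0.03 (limma adjusted p = 0.727 and 0.934). Sox10, which defines these cells, was too low to test. It was at 0.0495 to 0.130 RPKM in null and 0.0227 to 0.0431 RPKM in wild-type libraries, higher without overlap on about 7.0 to 16.9 and 3.0 to 5.0 reads. How many genes at such low levels are apart in this way was not counted. Acinar markers were higher in null islets, with all 32 tested genes positive, a median of 2.39 and a summed level of 6929 to 34250 RPKM in null and 765 to 9275 RPKM in wild-type libraries. Among lists of endocrine and blood cells, delta cell markers had a median of -0.77 over 6 tested genes, with 5 negative, 4 of them lower without overlap, and 1 positive and higher without overlap. Over all tested genes 13.2% were lower and 1.9% higher without overlap. The summed level of the delta cell markers was 743 to 1147 RPKM in null and 1806 to 2468 RPKM in wild-type libraries, ranges that do not overlap. All 5 tested red blood cell markers were negative, with a median of -0.65, and their summed level was 102 to 444 RPKM in null and 111 to 588 RPKM in wild-type libraries. Beta, alpha, PP and endothelial lists had medians between -0.02 and 0.05. Rescaling without the acinar list gave S100a6, S100a16 and S100a13 differences of -0.79, -0.44 and -0.16.

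**Figure D4:**
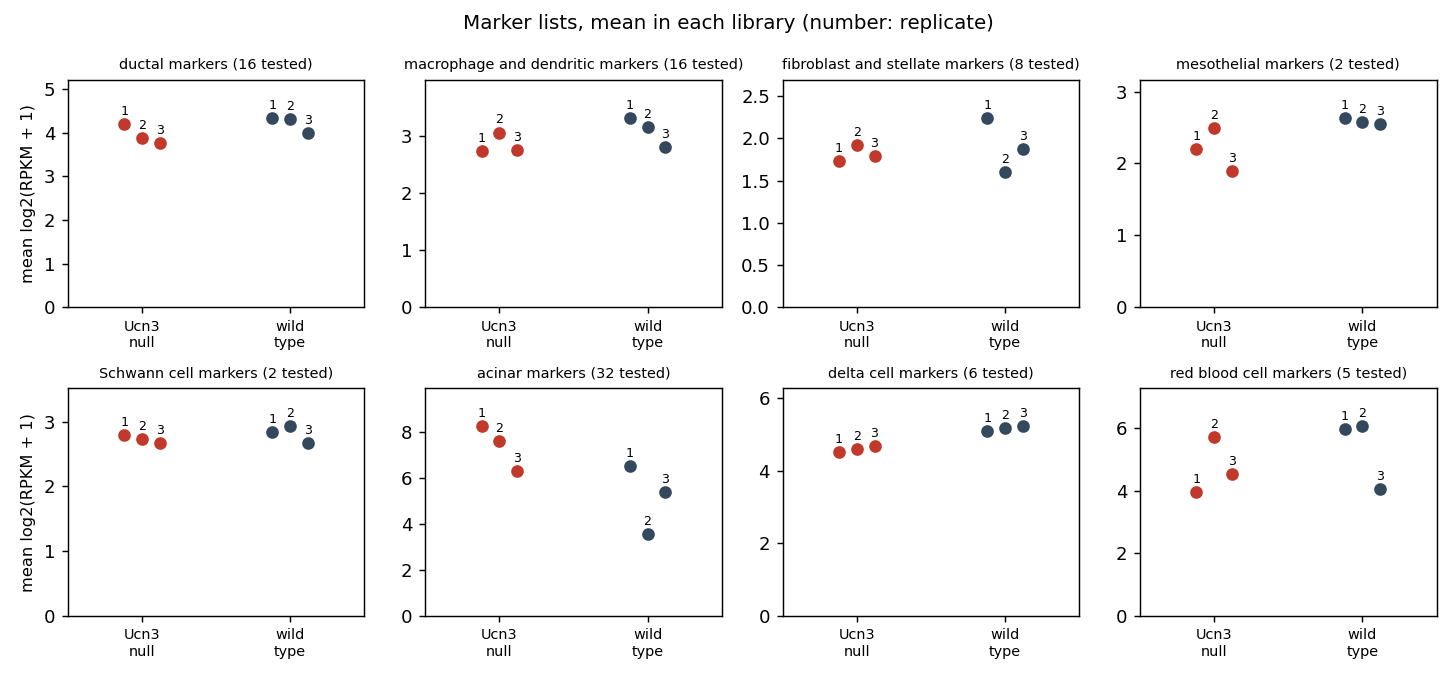
Mean log2(RPKM + 1) of the tested genes of 8 marker lists (vertical axes, starting at 0) in the 3 Ucn3 null libraries (left) and the 3 wild-type libraries (right); each point is a library, with its replicate number. Delta cell markers, 6 genes, and mesothelial markers, 2 genes, are the lists of these 8 whose groups do not overlap. Of the 2 mesothelial genes, Gpm6a was tested only because of its level in wild-type libraries, and Msln alone overlaps between the groups. Ductal means run from 3.76 to 4.20 in null and from 3.99 to 4.35 in wild type, and acinar means are highest in Ucn3 null replicate 1.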

How the data were processed

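The deposited table gives RPKM values made by the authors, per the file headers, for each of 6 libraries and 28129 RefSeq transcripts, of which 28011 had a number in every library. The submitters' processing notes name STAR, bedtools, DESeq and the mouse build mm9, without roles or versions. Nothing states how reads shared by transcripts were assigned or whether strand was considered. The library kit, TruSeq RNA v2 per the labels, does not mark strand.

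A symbol with several transcripts was represented by that of highest mean. Genes with a mean of 1 RPKM or more were tested with limma 3.58.1 in R 4.3.3 on log2(RPKM + 1), with genotype as the only term, a mean trend and Benjamini-Hochberg adjustment over all 12652 genes at 0.05. Among the genes named, Lcn2, Gpm6a, Mir3112 and Erbb3 averaged under 1 RPKM in null islets and were tested only because of their level in wild-type islets. No label pairs a null with a wild-type animal. Replicates are numbered in accession order. Differences are Ucn3 null minus wild type. The fit was tested on simulated data.

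Reads per gene were estimated from the steps of low values with transcript lengths of GENCODE M21. The share of low values within 0.1 of a whole read was 77.3% to 78.7%, so these reads are approximate. Intervals are 95% confidence intervals of the difference between group means, from the limma SE. They do not give the range of single animals.

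The members and lists were chosen with earlier results of these data known. Genes named are the members, all listed S100 genes, up to 3 genes of smallest p in each other list described by gene, genes fixed by name, and the 3 genes most like S100a11 and S100a6. Other marker lists were used by counts or levels, and Ly6g was not analysed here. The values of 2 further genes of the Schwann cell list are not reported here. Alternatives were other scalings, no filter, a pseudocount of 0.1, no mean trend, the mean over transcripts, and leaving out each library. Figures were drawn with matplotlib 3.10.9.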

Additional observations from a re-analysis of the deposited data

How the results depend on the processing

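No S100 member passed the adjusted threshold under any of the 12 alternatives, and 6 of the 7 tested members stayed lower in Ucn3 null islets under all of them. The exception was S100a1, at 0.008 without Ucn3 null replicate 1 and from -0.220 to 0.008 with any 1 library left out. The number of genes past the threshold was 2 with all libraries and 4 without a filter on low values, and it ran from 1 to 5 with 1 library left out. The targeted gene Ucn3 was among them each time. Leaving out Ucn3 null replicate 1 gave 5 genes, and leaving out replicate 2 of that group gave 1. Among the other named genes, Acta2 was at -0.099 without Ucn3 null replicate 2 (-0.099 to 0.295 with 1 library left out). S100pbp was at -0.038 without wild type replicate 2 (-0.038 to 0.233). Why these values moved was not tested. The adjusted p of S100a6 ran from 0.186 to 0.965 over the alternatives and its difference from -0.985 to -0.745. Median-ratio scaling put the median of all genes at 0.005 and the acinar-free scaling at 0.038, against -0.034 as deposited. No paired analysis was possible because the labels give no number or litter shared between a null and a wild-type animal. Depth limits S100a8 and S100a9, which rest on at most 8 reads per library.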
